A study of Mus musculus with 12 samples.

Results

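The genes described here encode neutrophil granule proteins and calprotectin, measured in alveolar macrophage preparations of mice after liver resection. They are the 10 genes S100a8, S100a9, Lcn2, Mmp8, Mmp9, Ltf, Camp, Ngp, Elane and Retnlg, chosen by name and matched to the probe annotation by symbol. The choice was made with earlier results of these data known. Each of the 10 had exactly 1 probe set, so 10 of the 22206 tested probe sets are members, and 19572 of those tested carry a single gene symbol. The cells came from male C57 Black mice, whose age and genotype the labels do not give, and were sorted from the lung with magnetic beads carrying an antibody to Siglec-F. Siglec-F is a sialic acid-binding lectin of mouse alveolar macrophages and of eosinophils, so the beads can take up both. The control group had an intact liver and the other 3 groups were sampled 1, 3 and 7 days after 70% of the liver had been removed. No sham operation is named in the labels, so surgery and loss of liver cannot be told apart. Each group had 3 biological replicates with 1 Clariom S mouse array each, 12 arrays in all. The labels do not say whether a replicate was 1 animal or a pool, so p-values measure the spread between these samples.

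Neutrophils load their granules in a fixed order while they mature in the bone marrow. Primary granules come first and hold serine proteases such as neutrophil elastase, the product of Elane. Secondary granules follow and hold lactoferrin (Ltf), the cathelicidin peptide precursor (Camp), neutrophilic granule protein (Ngp), the siderophore-binding lipocalin 2 (Lcn2) and neutrophil collagenase (Mmp8). Tertiary granules come last and hold gelatinase B (Mmp9). S100a8 and S100a9 encode the subunits of calprotectin, a calcium- and zinc-binding protein that fills the neutrophil cytosol, and Retnlg encodes a resistin-like secreted protein of myeloid cells. Transcripts for primary and most secondary granule proteins are made mainly by precursors in the marrow, whereas S100a8 and S100a9 transcripts remain abundant in circulating neutrophils. Macrophages and epithelium can make Lcn2 and Mmp9 too.

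C/EBP factors drive many granule genes during this maturation. For that reason the promoters of Lcn2, Mmp8, S100a9, Retnlg and Ngp, which hold the letters of a C/EBP core, are shown. The promoter table of RefSeq (GRCm38.p6) holds a window from 250 bases before to 50 after the start for 9 of the 10 genes, without Mmp9. The letters TTNNGCAA, a C/EBP core, were searched on both strands and occurred in 6 of these 9 windows (Ltf, Ngp, Lcn2, Mmp8, S100a9 and Retnlg), against 10.8% of 32851 promoters. Each window is given 5′ to 3′ on the strand of its gene, and capitals mark the match. Lcn2 lies at chr2:32387690-32387989 on the minus strand, Mmp8 at chr9:7558179-7558478 on the plus strand and S100a9 at chr3:90695672-90695971 on the minus strand. Retnlg lies at chr16:48872358-48872657 and Ngp at chr9:110419558-110419857, both on the plus strand.
Lcn2: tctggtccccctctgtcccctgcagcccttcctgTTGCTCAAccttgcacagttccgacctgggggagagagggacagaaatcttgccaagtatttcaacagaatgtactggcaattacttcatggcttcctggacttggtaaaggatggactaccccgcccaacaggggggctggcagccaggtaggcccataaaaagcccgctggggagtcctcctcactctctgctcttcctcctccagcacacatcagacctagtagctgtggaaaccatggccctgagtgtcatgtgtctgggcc
Mmp8: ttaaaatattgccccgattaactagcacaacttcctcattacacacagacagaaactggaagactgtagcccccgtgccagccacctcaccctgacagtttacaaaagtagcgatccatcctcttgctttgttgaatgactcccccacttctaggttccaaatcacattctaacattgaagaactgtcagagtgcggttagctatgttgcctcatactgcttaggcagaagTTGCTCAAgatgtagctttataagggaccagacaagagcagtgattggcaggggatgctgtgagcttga
S100a9: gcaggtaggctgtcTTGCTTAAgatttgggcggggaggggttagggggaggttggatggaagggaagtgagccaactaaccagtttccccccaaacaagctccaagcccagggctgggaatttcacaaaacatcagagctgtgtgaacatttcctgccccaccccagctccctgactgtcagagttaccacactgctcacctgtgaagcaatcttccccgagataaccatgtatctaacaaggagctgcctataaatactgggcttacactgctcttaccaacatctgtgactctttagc
Retnlg: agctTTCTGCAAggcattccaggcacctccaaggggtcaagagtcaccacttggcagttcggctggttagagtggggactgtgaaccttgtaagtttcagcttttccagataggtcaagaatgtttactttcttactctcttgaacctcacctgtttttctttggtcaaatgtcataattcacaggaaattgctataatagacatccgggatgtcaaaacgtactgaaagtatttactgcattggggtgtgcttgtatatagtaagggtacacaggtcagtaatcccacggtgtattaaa
Ngp: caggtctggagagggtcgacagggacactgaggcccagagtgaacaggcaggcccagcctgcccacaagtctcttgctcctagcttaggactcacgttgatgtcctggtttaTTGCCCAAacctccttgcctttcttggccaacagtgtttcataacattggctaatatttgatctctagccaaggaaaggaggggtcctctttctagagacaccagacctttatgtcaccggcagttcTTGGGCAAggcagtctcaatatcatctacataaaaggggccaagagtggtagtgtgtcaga

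The match in Lcn2 and that in Mmp8 have the same letters, TTGCTCAA, read on the opposite strand, and that of Mmp8 begins at -19 and that of Lcn2 at -216 from the start. Ngp held 2 matches, TTGCCCAA at -138 and TTGGGCAA at -11, which are the same letters read on opposite strands. Ltf held TTGGGCAA at -75. The letters GAGGAA, a core of PU.1, were found in 5 windows (Elane, Ltf, Lcn2, Mmp8 and S100a8), against 28.3% of all promoters. The letters TGANTCA of AP-1 were in 0 of the 9 windows (7.81% of all) and an NF-kB motif was found in Camp alone (20.7% of all). Lcn2 and Mmp8 thus shared the C/EBP letters with Ngp and Ltf, whose values are set beside theirs below. In gene order S100a8 and S100a9 are neighbours with 0 coding genes between them. Camp, Ngp and Ltf lie on chromosome 9 with 8 coding genes between the first pair and 20 between the second.

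Values are log2 signals, and a difference of 1 is a doubling. The sorted cells carried alveolar macrophage markers, with Siglecf at 8.79 on the intact arrays, Pparg at 8.83 and Mrc1 at 10.10. The upper 95% limit of the intron control probe sets, which measure background, lay between 5.01 and 5.69. Exon controls separated from intron controls with an area under the curve of 0.852 to 0.888 on 9 arrays. It was 0.809 to 0.837 on the remaining 3, called weakly separating here: the second replicate of day 1, the first of day 3 and the second of day 7. A labelling control, dap, read 6.47 to 7.77 on 3 arrays (the first replicate of day 3 and replicates 2 and 3 of day 7) against 2.13 to 2.89 elsewhere. The hybridisation control bioB read 8.62 to 10.29 at day 1, against 7.53 to 7.72 on the intact arrays. What these array differences contributed to the results was not tested. The calls of the 10 genes, their order over days and the list medians by day that turn their sign without the 3 weakly separating arrays are given both ways.

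Among the 10 genes, 6 had higher means at every day after resection than in intact mice: the calprotectin genes S100a8 and S100a9, the secondary granule genes Lcn2 and Mmp8, the tertiary granule gene Mmp9 and Retnlg. Their means over the 3 resected groups exceeded the intact mean by 1.07 to 1.66 on the log2 scale, or 2.10- to 3.16-fold. The primary granule gene Elane and the secondary granule genes Ltf, Camp and Ngp had pooled differences from -0.67 to -0.09. None of the 10 passed an adjusted p of 0.05 in limma with all 12 arrays. Without the 3 weakly separating arrays, all 6 passed in the pooled comparison and the other 4 did not. These 3 arrays are all resected ones, and the limit that set them apart was chosen with earlier results of these data known. In these bulk samples more cells of a type and more RNA per cell cannot be told apart.

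**Figure D1:**
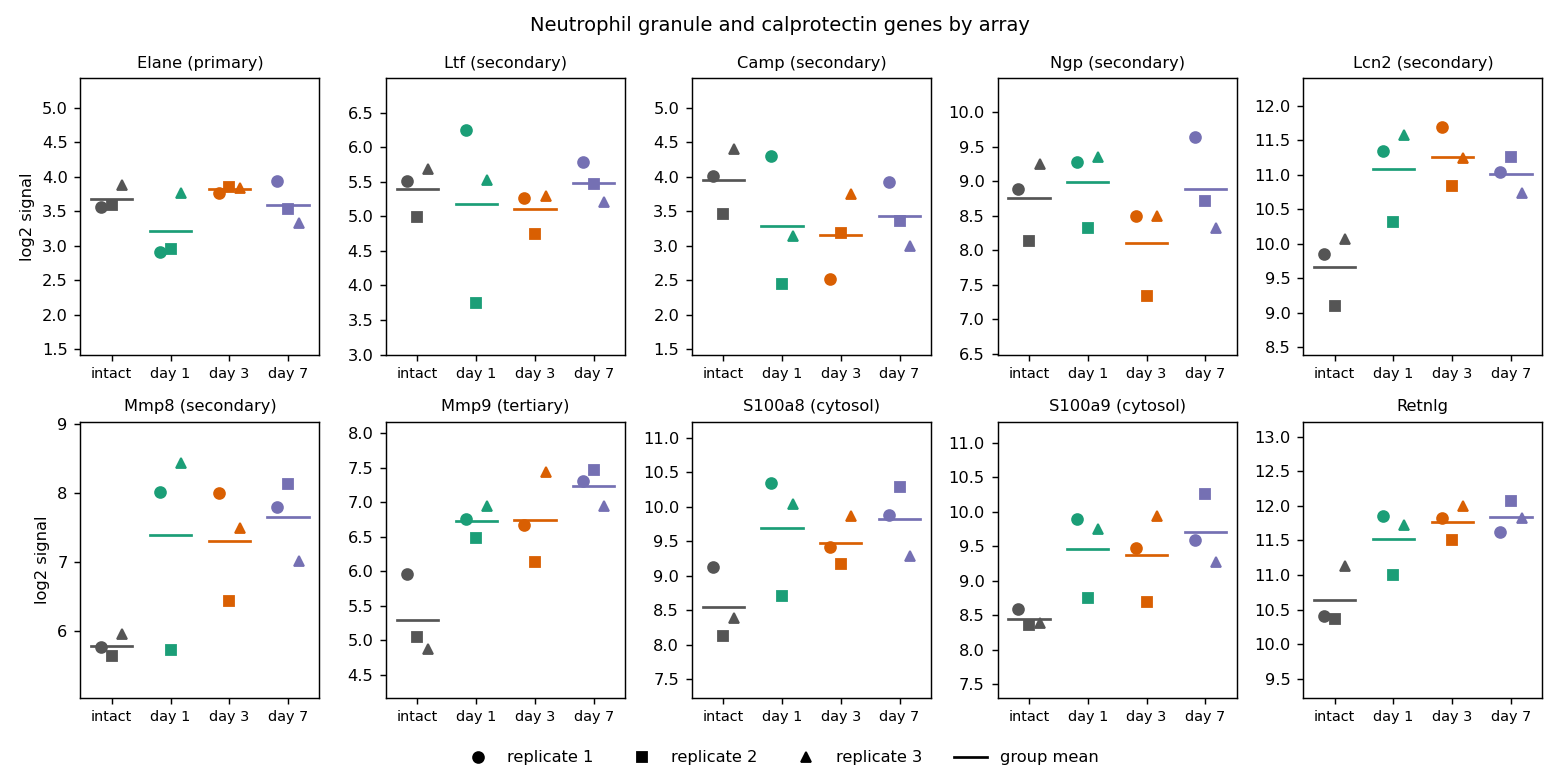
Log2 signal (y axis) of each of the 10 genes on every array by group (x axis), with the granule stage in the panel title, 1 symbol per replicate and a line at the group mean. For Lcn2, Mmp9 and S100a9 all 9 resected arrays lie above all 3 intact arrays, whereas for Elane, Ltf, Camp and Ngp the groups overlap.

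The calprotectin subunit gene S100a8 read 9.13, 8.12 and 8.38 on the intact arrays, 10.34, 8.70 and 10.04 at day 1, 9.41, 9.17 and 9.86 at day 3, and 9.88, 10.29 and 9.28 at day 7. Every resected array except day 1 replicate 2 exceeded the highest intact array. Its difference from intact was 1.15 ± 0.41 (log2 ± SE, n = 3 per group) at day 1, 0.93 ± 0.41 at day 3 and 1.27 ± 0.41 at day 7, with adjusted p of 0.445, 1 and 0.608. The partner subunit S100a9 read 8.59, 8.35 and 8.38 on intact arrays, 9.89, 8.75 and 9.75 at day 1, 9.47, 8.69 and 9.93 at day 3, and 9.59, 10.26 and 9.27 at day 7. All 9 resected arrays of S100a9 lay above the intact arrays, which spanned a narrow range. Its differences were 1.02 ± 0.36, 0.92 ± 0.36 and 1.26 ± 0.36, with adjusted p of 0.44, 1 and 0.469. Over the 12 arrays the subunit genes had a Pearson r of 0.937 and a Spearman rho of 0.923. This r is a description of probe sets that share arrays and normalization.

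Lcn2, whose protein withholds iron-laden siderophores from bacteria, read 9.85, 9.10 and 10.07 on the intact arrays, 11.35, 10.32 and 11.58 at day 1, 11.70, 10.84 and 11.24 at day 3, and 11.05, 11.26 and 10.74 at day 7. The lowest resected array, day 1 replicate 2, was still above the highest intact one. The differences of Lcn2 from intact were 1.41 ± 0.35, 1.59 ± 0.35 and 1.34 ± 0.35 at days 1, 3 and 7, and the adjusted p were 0.286, 0.328 and 0.389. The collagenase gene Mmp8 read 5.76, 5.63 and 5.95 on intact arrays, 8.01, 5.71 and 8.42 at day 1, 7.99, 6.43 and 7.48 at day 3, and 7.80, 8.12 and 7.00 at day 7. Day 1 replicate 2 was the resected array within the intact range, and the remaining 8 lay above it. For Mmp8 the differences of 1.60 ± 0.59, 1.52 ± 0.59 and 1.86 ± 0.59 had adjusted p of 0.461, 1 and 0.589. The day 1 value of Mmp8 was 2.43 ± 0.40 without day 1 replicate 2 (adjusted p = 0.126) and 1.08 without day 1 replicate 3, so its size depended on single arrays.

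Ltf and Ngp encode other proteins of the secondary granule, and their resected arrays overlapped the intact ones. Ngp read 8.89, 8.13 and 9.25 on intact arrays, 9.28, 8.32 and 9.35 at day 1, 8.49, 7.34 and 8.50 at day 3, and 9.64, 8.72 and 8.32 at day 7. The 4 groups overlapped, and the differences of Ngp from intact were 0.23 ± 0.43, -0.64 ± 0.43 and 0.14 ± 0.43. The iron-binding lactoferrin gene Ltf read 5.52, 4.999 and 5.68 on intact arrays, 6.25, 3.75 and 5.53 at day 1, 5.27, 4.75 and 5.30 at day 3, and 5.78, 5.48 and 5.22 at day 7. Both the highest and the lowest of these 12 values were at day 1. Ltf differed by -0.23 ± 0.48, -0.30 ± 0.48 and 0.09 ± 0.48, and its day 1 value was 0.49 ± 0.28 without day 1 replicate 2. Adjusted p of Ltf and Ngp were between 0.885 and 1 at the 3 days.

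Camp, the precursor of the antimicrobial peptide CRAMP, read 4.003, 3.46 and 4.40 on intact arrays, 4.29, 2.44 and 3.14 at day 1, 2.52, 3.19 and 3.75 at day 3, and 3.92, 3.36 and 2.99 at day 7. Its differences of -0.67 ± 0.45, -0.81 ± 0.45 and -0.53 ± 0.45 had adjusted p of 0.661, 1 and 1. Elane, the elastase of primary granules, read 3.57, 3.59 and 3.89 on intact arrays, 2.91, 2.95 and 3.77 at day 1, 3.76, 3.85 and 3.84 at day 3, and 3.94, 3.53 and 3.32 at day 7. Neither gene exceeded the background limit of its array on any of the 12 arrays, so these values cannot be told from background. Ltf exceeded it on 6 of 12 arrays and Mmp9 on 10, while the other 6 genes exceeded it on all 12. The differences of Elane were -0.47 ± 0.24, 0.14 ± 0.24 and -0.08 ± 0.24, with adjusted p of 0.584, 1 and 1.

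Mmp9, the gelatinase of tertiary granules, read 5.95, 5.04 and 4.87 on intact arrays, 6.75, 6.48 and 6.94 at day 1, 6.66, 6.13 and 7.44 at day 3, and 7.31, 7.46 and 6.95 at day 7. It exceeded background on 1 of 3 intact and 9 of 9 resected arrays, and all resected arrays lay above the intact ones. With the other 2 intact arrays at background, the size of its differences from intact is less certain than their direction. Mmp9 differed by 1.44 ± 0.34, 1.46 ± 0.34 and 1.95 ± 0.34 at days 1, 3 and 7, with adjusted p of 0.27, 0.392 and 0.14. Retnlg, which encodes resistin-like gamma, read 10.41, 10.37 and 11.13 on intact arrays, 11.86, 10.995 and 11.72 at day 1, 11.82, 11.51 and 11.99 at day 3, and 11.63, 12.08 and 11.82 at day 7. Day 1 replicate 2 lay inside the intact range and the other 8 resected arrays lay above it. The differences of Retnlg were 0.89 ± 0.27, 1.14 ± 0.27 and 1.21 ± 0.27, with adjusted p of 0.362, 0.397 and 0.286.

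**Figure D2:**
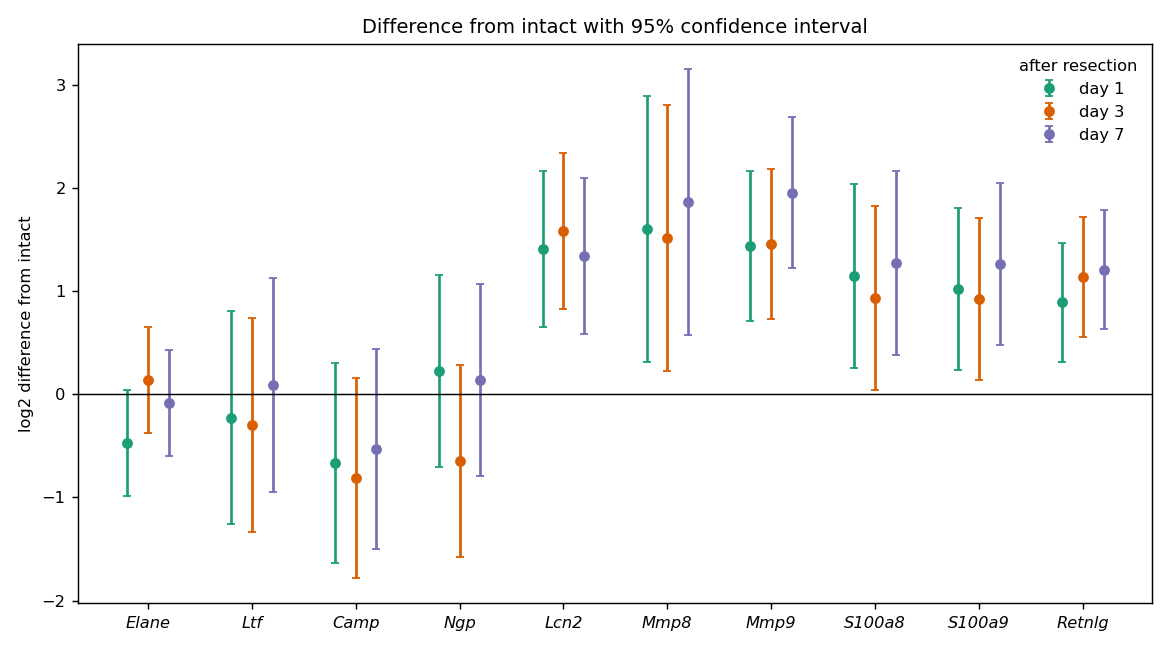
Log2 difference from intact (y axis) for each gene (x axis) at days 1, 3 and 7, with limma's unadjusted 95% confidence interval as bars (n = 3 arrays per group). The intervals of S100a8, S100a9, Lcn2, Mmp8, Mmp9 and Retnlg lie above 0 at each day, and those of Elane, Ltf, Camp and Ngp span 0.

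Set against all probe sets, the median difference of the 10 genes was 0.96 at day 1, 0.93 at day 3 and 1.24 at day 7, where the medians over all tested probe sets were -0.011, 0.0015 and -0.0091. The 3 comparisons share the intact arrays. The 10 genes were chosen with earlier results of these data known, so their counts beside the shares of all probe sets are a description, not a test. Of the 10 genes, 0 passed the adjusted threshold at each day; over all probe sets 0% passed at day 1, 0.0045% at day 3 and 0.018% at day 7. With an unadjusted p under 0.05, 6 of 10 were higher and 0 lower at each day, against 3.04%, 1.96% and 1.95% of all probe sets that were higher by this rule at days 1, 3 and 7. The genes whose 3 resected arrays all exceeded the 3 intact ones numbered 3 at day 1 (Lcn2, Mmp9 and S100a9), 6 at day 3 and 6 at day 7. By that rule 7.42%, 7.19% and 6.11% of all probe sets were higher. In an F test over the 4 groups 0 of the 10 passed (0.00901% of all), and the smallest adjusted p was 0.232, for Mmp9.

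Pooling the 3 resected groups against intact gave 0 of 10 past the adjusted threshold (0.045% of all probe sets), and 6 higher at an unadjusted p under 0.05 (1.27% of all). Mmp9 differed by 1.62 ± 0.27 (adjusted p = 0.073), Lcn2 by 1.45 ± 0.28 (adjusted p = 0.122) and Retnlg by 1.08 ± 0.22 (adjusted p = 0.141). For Mmp8 the value was 1.66 ± 0.48 (adjusted p = 0.431), for S100a8 1.12 ± 0.34 (adjusted p = 0.446) and for S100a9 1.07 ± 0.29 (adjusted p = 0.361). Lcn2, Mmp9 and S100a9 were the 3 genes with all 9 resected arrays above all 3 intact arrays, which 0.518% of all probe sets showed. Without day 1 replicate 2 alone, Lcn2 (1.57, adjusted p = 0.0252), Mmp8 (1.94, adjusted p = 0.0317), Mmp9 (1.66, adjusted p = 0.0425) and Retnlg (1.17, adjusted p = 0.0338) rose in the pooled comparison. Without day 3 replicate 1 alone, Mmp9 rose (1.63, adjusted p = 0.0497). The share of all probe sets that passed in these fits is not given, so these calls are not set against it. The range over all probe sets when single arrays were left out is given in the last section.

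Without the 3 weakly separating arrays, 9 arrays remained, with 2 in each resected group. In limma on these, S100a8 (1.215 ± 0.23, adjusted p = 0.0213), S100a9 (1.08 ± 0.22, adjusted p = 0.0302), Lcn2 (1.46 ± 0.20, adjusted p = 0.00323), Mmp8 (1.74 ± 0.23, adjusted p = 0.00294), Mmp9 (1.63 ± 0.29, adjusted p = 0.0122) and Retnlg (1.12 ± 0.18, adjusted p = 0.0084) rose in the pooled comparison. That was 6 of 10 genes, against 0.324% of all probe sets that rose. By day, Lcn2 rose at day 1 (1.80, adjusted p = 0.0181), day 3 (1.37, adjusted p = 0.0294) and day 7 (1.22, adjusted p = 0.0478). Mmp8 rose at day 1 (2.43, adjusted p = 0.00916) and day 7 (1.62, adjusted p = 0.0238), Retnlg at day 3 (1.12, adjusted p = 0.0486) and Mmp9 at day 7 (1.84, adjusted p = 0.0336). These were 2, 2 and 3 genes of 10, where 0.0901%, 0.311% and 0.212% of all probe sets rose. Weighting the arrays by their estimated quality in place of leaving any out gave 2, 3 and 4 of 10 that rose at days 1, 3 and 7 and 6 in the pooled comparison. With these weights 0.063%, 0.459% and 0.374% of all probe sets rose at days 1, 3 and 7 and 0.41% in the pooled comparison.

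**Figure D3:**
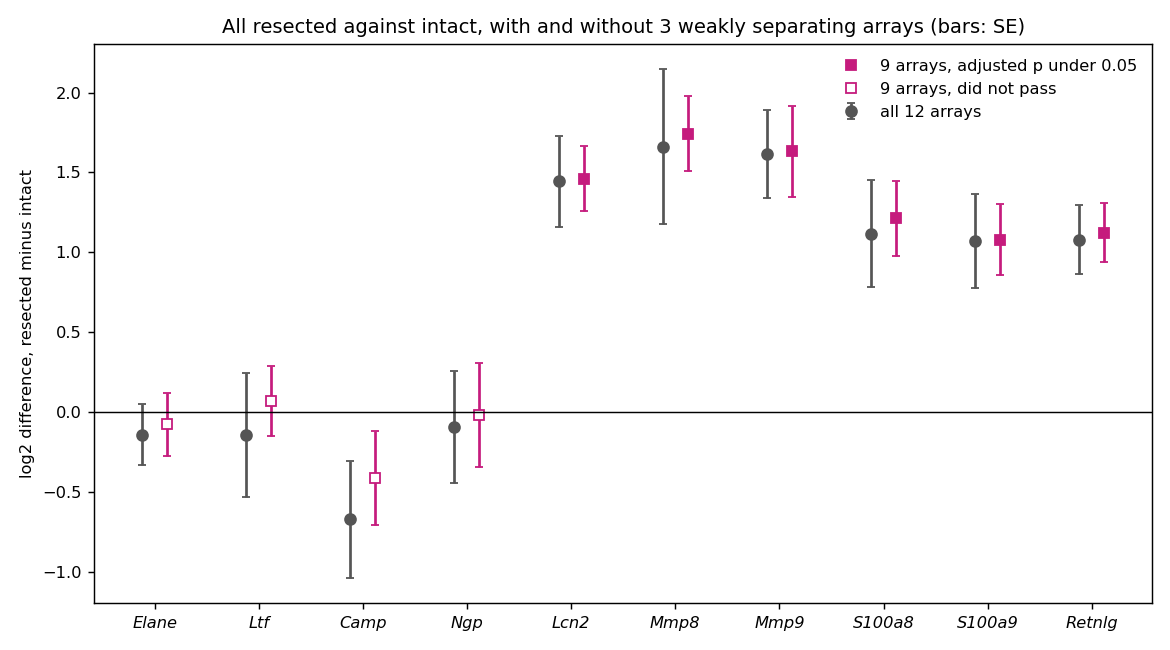
Log2 difference of all resected arrays from intact (y axis) for each gene (x axis), with all 12 arrays (circles) and without the 3 weakly separating arrays (squares, filled where the adjusted p was under 0.05); bars are SE. The point values of the 6 higher genes differ little between the fits, while the squares have shorter bars for 5 of them, all but Mmp9.

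Between the days after resection none of the 10 genes passed in any pair of days (0% of all probe sets in day 3 against day 1, 0% in day 7 against day 1 and 0% in day 7 against day 3). Mean Mmp9 was highest at day 7, with 7.24 ± 0.27 (SD, n = 3) against 6.74 ± 0.66 at day 3 and 6.73 ± 0.23 at day 1. All 3 day 7 arrays of Mmp9 exceeded the day 1 arrays, with a difference of 0.52 and a 95% interval from -0.21 to 1.25 (adjusted p = 0.778). With 12 arrays Lcn2 was highest at day 3 (11.26 ± 0.43), followed by day 1 (11.08 ± 0.68) and day 7 (11.01 ± 0.26), which do not differ beyond their spread. For S100a8, S100a9 and Mmp8 the order of means was day 7, day 1, day 3, intact, and for Retnlg and Mmp9 it was day 7, day 3, day 1, intact. For each of the 10 genes every pair of days overlapped, except Mmp9 at day 7 and day 1, so neighbouring days in these orders do not differ beyond their spread. Without the weakly separating arrays the orders turned for all 6 genes, and day 1 came first for 5 of them. The differences from intact at days 1, 3 and 7 were then 1.645, 0.97 and 1.03 for S100a8 and 1.38, 0.87 and 0.98 for S100a9. They were 1.80, 1.37 and 1.22 for Lcn2, 2.43, 1.17 and 1.62 for Mmp8, and 1.16, 1.12 and 1.09 for Retnlg. Mmp9 still had its highest value at day 7, with 1.56, 1.496 and 1.84, and none of the 10 genes passed in any pair of days in that fit.

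With 12 arrays Elane and Ngp had the largest differences between days. Elane was 0.61 ± 0.24 higher at day 3 than at day 1 (adjusted p = 0.47), at values below background. Ngp was lowest at day 3, at 8.11 ± 0.67 against 8.98 ± 0.58 at day 1, a difference of -0.87 ± 0.43 (adjusted p = 0.549). Its day 7 mean of 8.89 ± 0.67 was close to that of day 1.

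The difference between members of the secondary granule was also read within each array, where array-wide shifts are shared. Each array's Lcn2 minus Ltf signal, set to 0 at the intact mean, ran from -0.18 to 0.11 on intact arrays and from 0.83 to 2.29 on the 9 resected arrays. Lcn2 minus Ngp ran from -0.09 to 0.05 on intact and from 0.49 to 2.58 on resected arrays. Mmp8 minus Ltf ran from -0.14 to 0.25 on intact and from 1.30 to 2.51 on resected arrays, so that in these 3 pairs all 9 resected arrays exceeded the intact ones. For Mmp8 minus Ngp 8 of 9 did so, day 1 replicate 2 being the exception at 0.37 against an intact maximum of 0.48. These pairs were chosen after the values were seen and carry no test. Since Ltf was near background on 6 arrays, the pairs with Ngp rest on the better measured gene.

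Across the 12 arrays the 6 higher genes had pairwise Pearson r between 0.771 and 0.937 (median 0.857 over 15 pairs). Ltf, Camp and Ngp had r between 0.53 and 0.733 with each other. Between the 6 genes and these 3 the r ran from -0.244 to 0.532, with a median of 0.217. After each gene's group means were subtracted, the r between the 6 and the 3 ran from 0.305 to 0.849, with a median of 0.628, so that within a group the arrays high in one set tended to be high in the other. These r describe 12 arrays that share one normalization, and the 6 were set apart from the 3 after their values were seen. Elane had an r of 0.07 with the mean of the other 9 genes, against 0.92 for S100a8 and 0.92 for Mmp8. Elane and Camp exceeded the background limit on 0 of 12 arrays and Ltf on 6. Low r of these genes therefore cannot show whether their transcripts varied with the others.

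The 8 genes most like the mean profile of the 10 (Pearson r over 12 arrays, among 18488 named genes) were Ifitm1, Rdh12, Mrgpra2a, Csta2, Dusp16, Samsn1, Ifngr1 and Cxcl13. They were picked on the same 12 arrays by likeness to a mean of genes mostly higher after resection. Their differences in that direction therefore follow in part from the choice. Ifitm1, an interferon-induced membrane protein gene, had the highest r, 0.948 (rho 0.909), and differed from intact by 1.17, 0.79 and 1.23 at days 1, 3 and 7. Mrgpra2a, a receptor gene of mouse neutrophils, had an r of 0.893 and differences of 1.38, 1.99 and 2.68. Csta2, of the stefin A cluster of cysteine protease inhibitors, had an r of 0.890, and Rdh12, a retinol dehydrogenase gene, 0.908. The B cell chemokine gene Cxcl13 had an r of 0.865 and differed by 2.17, 2.56 and 2.44. For Dusp16, Samsn1 and Ifngr1 the r were 0.881, 0.868 and 0.866, with differences of at most 0.57. None of the 8 passed at any day in limma with 12 arrays (smallest adjusted p = 0.355).

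The other genes of the granule programme were read from lists chosen with earlier results of these data known. Of 6 other primary granule genes, 4 were higher and 2 lower at day 1, 2 and 4 at day 3, and 5 and 1 at day 7, with medians of 0.14, -0.07 and 0.17. The day 1 median was -0.05, with 1 higher and 5 lower, without the weakly separating arrays. Mpo, which encodes the peroxidase myeloperoxidase, stood at 3.17 in intact cells. The protease genes for proteinase 3 (Prtn3) and cathepsin G (Ctsg) stood at 4.20 and 2.32, and all of these were near background. None of these 3 differed from intact by more than 0.28 at any day. Serpinb1a, a cytosolic inhibitor of neutrophil serine proteases, stood at 8.48 and differed by 0.30, -0.40 and 0.25. The other genes of this list lay below the background limits, so the list cannot show whether primary granule transcripts changed.

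Of 8 other secondary granule genes, 7 were higher at day 1 and 6 at days 3 and 7, with medians of 0.36, 0.29 and 0.38, and none passed. Pglyrp1, a peptidoglycan recognition protein, differed by 0.46, 0.44 and 1.03, and Lrg1, a leucine-rich glycoprotein, by 0.88, 0.60 and 1.03. The neutrophil surface antigen gene Cd177 stood at 3.85 in intact cells and differed by 0.77, 0.49 and 0.30. Cd177 and Lrg1 lay below the background limits on every intact array, so the size of their differences is uncertain. Chil3, a chitinase-like protein that alveolar macrophages also make, stood at 11.61 and differed by 0.21, 0.15 and -0.04. Without the weakly separating arrays the medians were 0.85, 0.32 and 0.54, and 1 gene, haptoglobin (Hp), rose at days 1 and 3 and in the pooled comparison.

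The 8 genes of tertiary granules and secretory vesicles were lower in 7 cases at day 1 and higher in 5 at days 3 and 7, with medians of -0.24, 0.27 and 0.28, and none passed. Mmp25, a membrane-bound matrix metalloproteinase of neutrophils, differed by 0.29, 0.77 and 1.21 and Adam8, a sheddase, by -0.28, 0.72 and 1.16. Without the weakly separating arrays the day 1 median was 0.18, with 6 higher and 2 lower. In that fit Adam8 rose at days 3 and 7, Mmp25 at day 7 and both in the pooled comparison. The integrin gene Itgam differed by -0.16, 0.70 and 0.84, and alkaline phosphatase (Alpl) by -0.28, -0.12 and -0.53. Mmp25 lay below the background limits on every intact, day 1 and day 3 array and read at most 5.29 at day 7. Its differences therefore lie near background, and Alpl was below the limits on every array.

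The S100 family has many members outside calprotectin, of which 10 were read beside it. Of these, 4 were higher at day 1, 2 at day 3 and 4 at day 7, with medians of -0.19, -0.20 and -0.04. The day 7 median was 0.01 after each array was centred on its median, and 0.02 with 7 higher and 3 lower without the weakly separating arrays. S100a16 differed by -0.78, -0.82 and -0.85 and S100a4, of motile myeloid and mesenchymal cells, by -0.54, -1.02 and -0.92. S100a10, the partner of annexin A2, differed by -0.80, -0.21 and 0.01, and S100a13 by -0.28, -0.69 and -0.29. Without the weakly separating arrays S100a4 fell at day 7, as did 1.05% of all probe sets, and S100a16 in the pooled comparison, as did 1.45%. S100a16 read at most 4.50 and S100a4 at most 5.05, below the background limit of every array they were read on. The differences of both genes therefore cannot be told from background.

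Genes for receptors of these proteins were lower in 5 of 7 cases at each day, with medians of -0.15, -0.07 and -0.11. After quantile normalization the day 1 median was 0.01. The day 7 median was 0.09, with 4 higher and 3 lower, without the weakly separating arrays. Tlr4, which senses calprotectin, differed by 0.27, 0.05 and 0.50, and Ager, the receptor RAGE that type 1 alveolar cells carry in quantity, by -1.70, -0.59 and -1.23. Ager fell at day 7 and in the pooled comparison without those arrays. The scavenger receptor gene Cd36 differed by -0.01, -0.18 and -0.33, and Lrp1, a receptor of lactoferrin, by -0.15, -0.07 and 0.29.

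Of 11 genes for inhibitors of the proteases, 6, 9 and 7 were higher at days 1, 3 and 7, with medians of 0.04, 0.06 and 0.05. The day 1 median was -0.03 after quantile normalization. Timp3, a matrix-bound inhibitor of metalloproteinases, differed by -1.31, -1.19 and -1.43, and Timp2 by -0.72, 0.30 and -0.45. Without the weakly separating arrays Timp3 fell at day 3, as did 0.824% of all probe sets. Serpina3n, an acute phase serpin, differed by 1.06, 0.01 and -1.06 and rose at day 1 without those arrays. Serpina1e, an alpha-1-antitrypsin gene, differed by 0.47, 0.29 and 0.14. All genes of this list except Timp2, Timp3 and Serpina3n lay below the background limits on every array. Serpina3n lay below them on every intact and day 7 array. The counts and medians of the list thus rest mostly on genes that cannot be told from background.

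Among 11 regulators of granulocyte formation, 3, 4 and 3 were higher at days 1, 3 and 7, with medians of -0.04, -0.07 and -0.24. The first was 0.02 after quantile normalization. Among cytokine genes that raise granulocyte output, Il6 differed by -2.41, -1.40 and -1.63, Il17a by -0.59, -0.31 and -0.69, and Csf3 by 0.13, 0.35 and -0.45. Il17a and Csf3 read at most 3.90 on any array, below the background limits, so their differences cannot be told from background. The receptor gene Csf3r, which mature neutrophils carry, differed by 0.64, 0.49 and 1.03. None of the 11 passed at any day.

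Markers of mature neutrophils stood higher beside the 6 genes. Of 12 measured, 8 were higher at day 1 and 12 at days 3 and 7, with medians of 0.62, 0.47 and 1.02, and the mean level of the list ran from 6.60 to 6.86 on intact arrays, 6.99 to 7.82 at day 1, 7.22 to 8.12 at day 3 and 7.68 to 8.29 at day 7. Cxcr2, the chemokine receptor of circulating neutrophils, differed by 1.03, 1.35 and 1.71, G0s2 by 1.12, 0.45 and 0.86, and Padi4, the enzyme that citrullinates neutrophil histones, by -0.09, 0.24 and 1.04. Mrgpra2b differed by 2.28, 1.90 and 2.63, and it rose in the pooled comparison (2.27 ± 0.34, adjusted p = 0.0454), the 1 gene of the list to pass. After each array was centred on its median it no longer passed (2.30 ± 0.35, adjusted p = 0.0795), and after quantile normalization it did (adjusted p = 0.0173). Without the weakly separating arrays 6 of the 12 rose in the pooled comparison, and the medians by day were 0.71, 0.81 and 0.98. Ly6g, a defining neutrophil marker, was not analysed here. The part of neutrophil RNA in the values of the 6 genes was not tested.

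**Figure D4:**
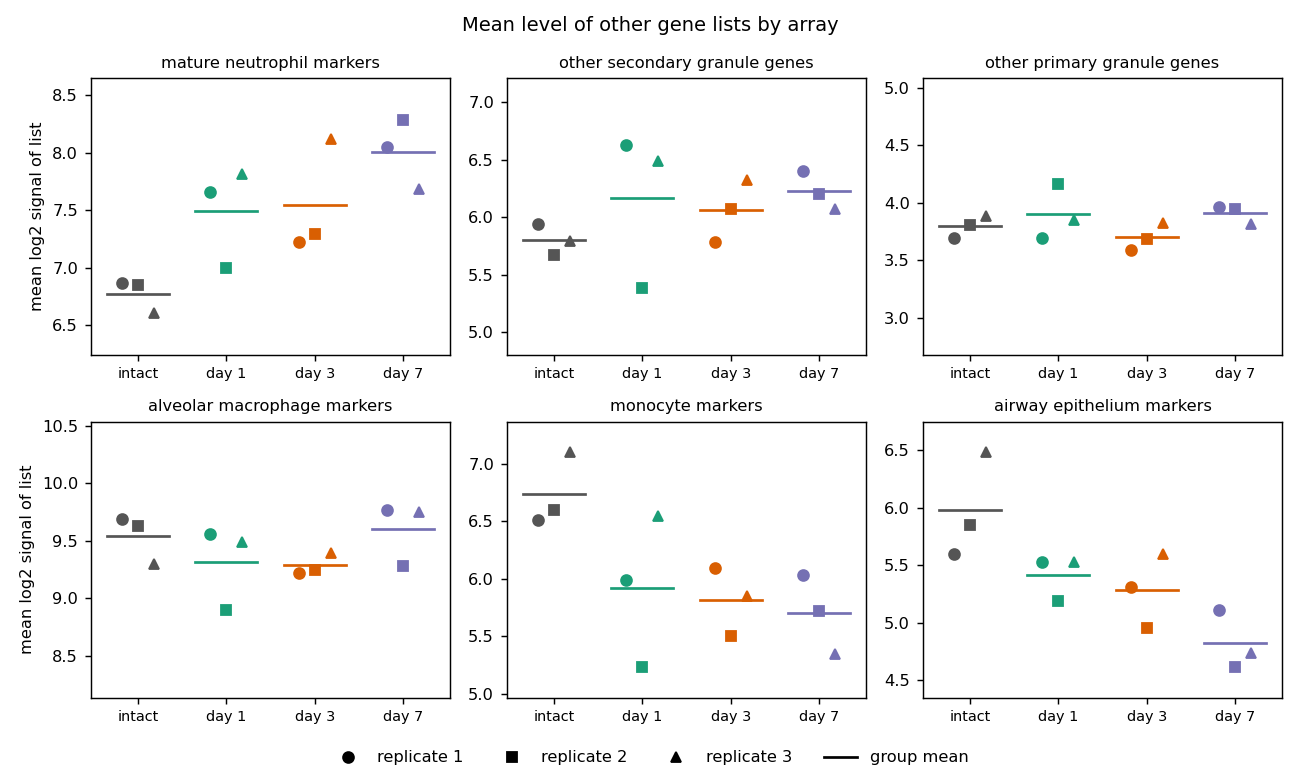
Mean log2 signal (y axis) of 6 gene lists on every array by group (x axis), with 1 symbol per replicate and a line at the group mean. The mature neutrophil list lies above its intact range on all 9 resected arrays, and the monocyte and airway lists have lower group means after resection. The primary granule list stays between 3.60 and 4.17, but all its genes except Serpinb1a lie below the background limits.

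Markers of other cells that could be present were read in the same way. Monocyte markers were lower in 7 of 7 cases at day 1, 6 at day 3 and 7 at day 7, with medians of -0.82, -0.96 and -0.79; their mean level ran from 6.51 to 7.10 on intact, 5.23 to 6.54 on day 1, 5.50 to 6.10 on day 3 and 5.35 to 6.03 on day 7 arrays. Ly6c2, a marker of inflammatory monocytes, differed by -1.92, -1.91 and -1.98 and fell at days 3 and 7 without the weakly separating arrays. Airway epithelium markers were lower in 8 of 9 cases at each day (medians -0.83, -0.68 and -1.75), and their level ran from 5.60 to 6.48 on intact, 5.19 to 5.53 on day 1, 4.95 to 5.60 on day 3 and 4.62 to 5.11 on day 7 arrays. The club cell gene Scgb1a1 differed by -1.10, -1.48 and -2.03. Type 2 alveolar cell markers were lower in 9 of 9 cases at each day (medians -1.43, -1.09 and -1.59), and their level ran from 6.65 to 7.22 on intact, 4.35 to 6.39 on day 1, 5.67 to 6.70 on day 3 and 5.40 to 5.70 on day 7 arrays. Surfactant protein D (Sftpd) fell at day 7 (-1.98 ± 0.21, adjusted p = 0.00965) and in the pooled comparison (-1.50 ± 0.17, adjusted p = 0.00855). In the pooled comparison 7 of these 9 genes and 3 of the 9 airway genes fell once the weakly separating arrays were left out, against 1.45% of all probe sets. These 3 lists were lower where the 6 granule genes were higher, and the part of monocyte and epithelial RNA in those values was not tested.

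The alveolar macrophage list had small medians, with -0.11, -0.24 and -0.0026 over 12 genes, and the first of these was 0.03 after quantile normalization. The day 7 median was 0.05 both after quantile normalization and after each array was centred on its median. When the weakly separating arrays were left out, the day 1 median was 0.03, with 7 higher and 5 lower, and the day 7 median 0.17, with 11 higher and 1 lower in place of 6 and 6. Siglecf differed by -0.46, -0.25 and -0.06, Marco by 0.11, -0.61 and 0.48, Car4 by -1.06, -0.87 and -0.11 and Itgax by -0.93, -0.47 and 0.02. Eosinophils share the sorting antigen, and of 8 eosinophil markers 1, 4 and 6 were higher at days 1, 3 and 7 (medians -0.28, 0.02 and 0.22), with list levels of 4.47 to 5.45 on intact, 4.44 to 4.87 on day 1, 4.55 to 5.63 on day 3 and 4.90 to 6.17 on day 7 arrays. Ccr3, a chemokine receptor of eosinophils, differed by -0.30, 2.14 and 2.71 at days 1, 3 and 7, and Il5ra, their interleukin 5 receptor, by -0.11, 1.57 and 1.24. On the arrays left without the weakly separating 3, both rose at day 3 (adjusted p = 0.00897 and 0.00609) and in the pooled comparison, and Ccr3 rose at day 7 (2.16, adjusted p = 0.0112). Il5ra read at most 4.47 on any array, below the background limits. Ear6, a ribonuclease gene of the eosinophil family, differed by 1.03, -0.38 and 0.77 (adjusted p = 0.363, 1 and 0.786), and the granule protein gene Prg2 by -0.89, -1.55 and -0.27. The part of eosinophil RNA in the values of the 6 genes was not tested. Of 6 proliferation genes 0, 0 and 3 were higher (medians -0.42, -0.53 and 0.04), and Birc5 differed by -0.90, -0.49 and -0.08. The 3 measured red cell genes had medians of -0.11, 0.17 and 0.08, the last of which was -0.0049 without the weakly separating arrays.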

How the data were processed

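The deposited table holds log2 signals per probe set, for which the authors used the Transcriptome Analysis Console and RMA, per the submitters' processing notes, which give no versions. RMA corrects background, normalizes quantiles across arrays and summarises probes. The log2 scale was read from the values (1.41 to 12.79 over the tested probe sets). The genome build used for the arrays is not given in the sources used here.

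Of the deposited probe sets, 6640 controls were left out and 22206 tested. Each gene was taken by its probe set of highest mean. One linear model over 12 arrays, with group as its only term, was fitted in limma 3.58.1 (R 4.3.3) with empirical Bayes moderation, two-sided tests and Benjamini-Hochberg adjustment over all 22206, at a threshold of 0.05. For a pair of groups of 3 arrays, an exact two-sided permutation test cannot go below 0.1. The procedure was tested on simulated data.

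The members and the 15 lists (126 of 141 genes measured) were chosen with earlier results of these data known, as were the limits of 0.84 for weak control separation and 5 for dap. Genes named are the members, up to 4 genes per list with the smallest F test p, Siglecf, Pparg, Mrc1, Csf3r, Cxcr2, Mpo, Prtn3 and Ctsg, and the 8 genes of highest correlation with the members' mean; Hp was named because it alone passed in its list. The same replicate numbers recur in the groups, but the labels state no pairing. The replicate block, other normalizations, filters, moderation, array weights and arrays left out were alternatives.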

Additional observations from a re-analysis of the deposited data

How the results depend on the processing

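The precision of every value is limited by 3 arrays a group, and Elane, Camp and part of the Ltf signals lie at background, so a difference in these genes was not detectable at this signal. Mmp9 was above background on 1 of 3 intact arrays, which limits the size of its differences. Over 24 alternatives to the fit the differences of the 10 genes from intact gave 950 values. Of these, 889 kept their direction and their side of the threshold, 38 came to pass it and 23 turned their sign, all 23 in Elane, Ltf, Camp or Ngp and none past the threshold. Where no cause is named, the cause was not tested.

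The counts of probe sets past an adjusted p of 0.05 (0, 1, 4 and 10 at days 1, 3 and 7 and pooled, and 2 in the F test) were small and moved under most alternatives. Trend and robust moderation gave 4 at day 3, 29 pooled and 6 in the F test, and 2 members passed in the pooled comparison. Testing fewer, brighter probe sets gave 3, 8 and 17 at day 3, day 7 and pooled, and 1 member passed pooled. Quantile normalization gave 4 at day 3, median centring 5 pooled, and fitting only the compared groups 0 at day 3 and 48 at day 7, where 2 members passed. The unmoderated linear model gave 0 at days 3 and 7, pooled and in the F test; unadjusted p under 0.05 in the moderated fit numbered 990, 1265, 1225 and 1629 there.

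Array weights gave 43, 298, 402 and 575 probe sets at days 1, 3 and 7 and pooled, with 2, 3, 4 and 6 members, 7 in day 7 against day 3, and 360 in the F test with 5 members; the members' median in day 7 against day 1 was -0.35 in place of 0.25. Without the 3 weakly separating arrays the counts were 71, 252, 280 and 395, with 2, 2, 3 and 6 members, 6 in day 3 against day 1, 4 in day 7 against day 3 and 281 in the F test with 3 members, and the median in day 7 against day 1 was -0.36. Without the arrays that carry the labelling control, 0 passed at day 7, 1 pooled and 0 in the F test. With that control as a block, 1 passed at day 1, and the members' median in day 3 against day 1 was 0.0083.

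Same-numbered arrays correlated in their deviations from the group means by -0.24 to 0.26, with 3 of 18 pairs over 0.1, so the numbers were not taken to pair the samples. With the replicate block 0 passed at day 3, 8 at day 7 and 0 in the F test, and no member passed.

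Leaving out each array in turn gave 0 to 12 probe sets at day 1, 0 to 7 at day 3, 0 to 18 at day 7, 0 to 69 pooled, 0 to 8 in the F test, 0 to 3 in day 3 against day 1 and 0 to 3 in day 7 against day 3. The members past the threshold in the pooled comparison ranged from 0 to 4 (4 without day 1 replicate 2). Their median ranged from -0.51 to 0.28 in day 3 against day 1 and from -0.33 to 0.47 in day 7 against day 1. Among the members whose sign turned, these settings gave for Elane at day 7 -0.25 to 0.053, for Ltf -0.76 to 0.49 at day 1, -0.11 to 0.23 at day 7 and -0.34 to 0.094 pooled, and for Ngp -0.085 to 0.56, -0.24 to 0.42 and -0.41 to 0.15. Under the other alternatives Elane at day 7 was 0.0030 after quantile normalization, 0.26 without the labelling control arrays and 0.11 with that control as a block. Camp at day 7 was 0.030 with the block on the labelling control. Ltf was 0.35 at day 1 and 0.033 pooled with array weights, and 0.49 and 0.069 without the weakly separating arrays. Ngp was -0.052 at day 7 with array weights and 0.091 pooled without the labelling control arrays.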
